A study of Homo sapiens with 6 samples.

Results

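Replacement histone variants were followed in a human tumour cell line given a histone deacetylase inhibitor. The set held 9 genes chosen by symbol: H2AZ1 and H2AZ2 for H2A.Z, H2AX, H2AJ, MACROH2A1 and MACROH2A2 for macroH2A, H3-3A and H3-3B for the histone variant H3.3, and H1-10 for a linker histone. Of these, 8 had a probe set naming that gene alone, out of 18417 genes measured in this way. H3-3A had only probe sets that also named the pseudogene H3P6, and it is described apart from the other genes. The SAHA group was the cell line A204 exposed for 12 h to SAHA (vorinostat), which blocks the zinc-dependent HDAC enzymes, on 3 arrays. The control group was A204 given DMSO per the treatment protocol, also on 3 arrays, although another label gives its treatment as none. A204 is an established line from a rhabdoid tumour, a cancer typified by loss of the chromatin remodelling subunit SMARCB1, and it is the only line in both groups. The dose is labelled as 10 with an incomplete unit, so no concentration is given. Total RNA was hybridised to Affymetrix whole-transcript arrays, and levels are log2 RMA signals.

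Most histone protein is made in S phase from clustered genes whose transcripts end in a stem-loop. Replacement variants are encoded by single genes elsewhere in the genome, mostly give polyadenylated transcripts, and can be placed in chromatin outside replication by dedicated chaperones and remodellers. H2A.Z marks nucleosomes beside gene starts, H2AX is phosphorylated around DNA breaks, macroH2A carries a large extra domain and is enriched in silent chromatin, and H3.3 enters active genes and repeats through separate chaperones. HDAC inhibitors raise the acetylation of the histone proteins, which arrays of RNA do not measure.

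With 3 arrays per group precision is limited, and nothing in the labels states that each array had its own culture. The p-values therefore speak only to array-to-array spread, some or all of which may be technical. Array medians lay between 142 and 149 on the linear signal scale. Pearson's r over all probe sets on the log2 scale was 0.9965 to 0.9980 for arrays that shared a treatment and 0.9728 to 0.9738 for a SAHA array with a control array. The markers of the line itself moved with treatment. FN1 (fibronectin), a mesenchymal marker, averaged 10.73 ± 0.02 in SAHA and 7.48 ± 0.34 in control (SD, n = 3 each), a rise of 3.25 (limma adjusted p = 4.96e-07). VIM, another mesenchymal marker, averaged 12.63 in SAHA and 12.81 in control and fell by 0.18, and SMARCA4, a remodeller ATPase that rhabdoid tumours usually keep, changed by -0.34. The part of these shifts in the results was not tested. The 6 blood, endothelial and epithelial markers (PTPRC, CD3E, HBB, PECAM1, VWF and EPCAM) averaged 4.08 to 6.38 in SAHA and 4.05 to 6.41 in control. These levels come from different probe sets and rank the genes only roughly. The epithelial keratin KRT5 averaged 10.60 in SAHA and 11.23 in control, and its part in the results was not tested. SMARCB1 averaged 7.22 ± 0.05 in SAHA and 7.74 ± 0.04 in control (SD, n = 3 each), a change of -0.51 (limma adjusted p = 2.28e-05). Its part in the results was not tested, and no background call was made for it or for any other gene.

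After SAHA, transcripts of 4 of the 8 measured genes fell and those of 3 rose, leaving 1 that did not pass the test. The falls were those of MACROH2A2, H2AZ1, H2AX and MACROH2A1, and the rises those of H2AJ, H3-3B and H2AZ2. H1-10 did not pass. A gene is said to have risen or fallen where limma's moderated test, adjusted over all 18417 genes by the Benjamini-Hochberg method, gave an adjusted p under 0.05. At this threshold 60.0% of all genes passed, 31.1% higher and 28.9% lower in SAHA, so a passing call alone is common in these data. Groups were free of overlap for 7 of the 8 genes, against 65.4% of all genes. The median change of the 8 genes was -0.34 on the log2 scale, against -0.0027 over all genes. The median size of change regardless of direction was 0.50 for the 8 genes and 0.24 for all genes. Since RNA came from bulk cultures, fewer cells that express a gene and less of its RNA per cell cannot be told apart.

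**Figure D1:**
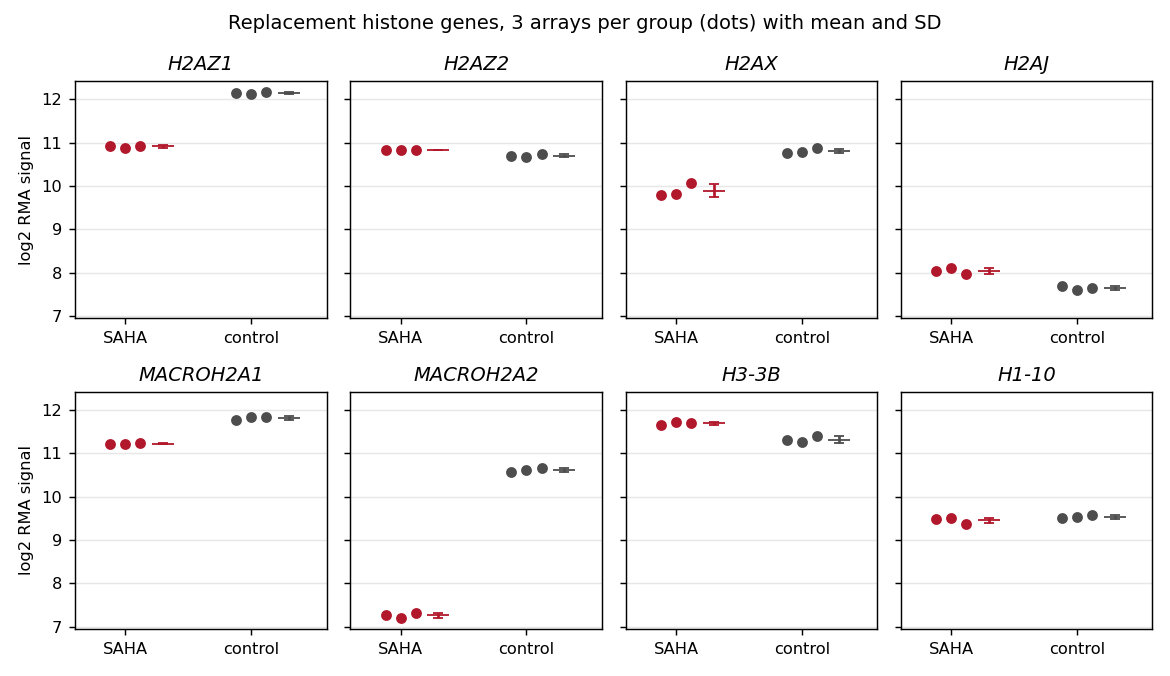
Log2 RMA signal of the 8 measured genes, with SAHA left and control right in each panel, a dot per array, and the mean with its SD (n = 3) beside the dots. The SAHA dots lie below control for H2AZ1, H2AX, MACROH2A1 and MACROH2A2 and above control for H2AZ2, H2AJ and H3-3B. For H1-10 the highest SAHA dot meets the lowest control dot and the other SAHA dots lie below it.

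**Figure D2:**
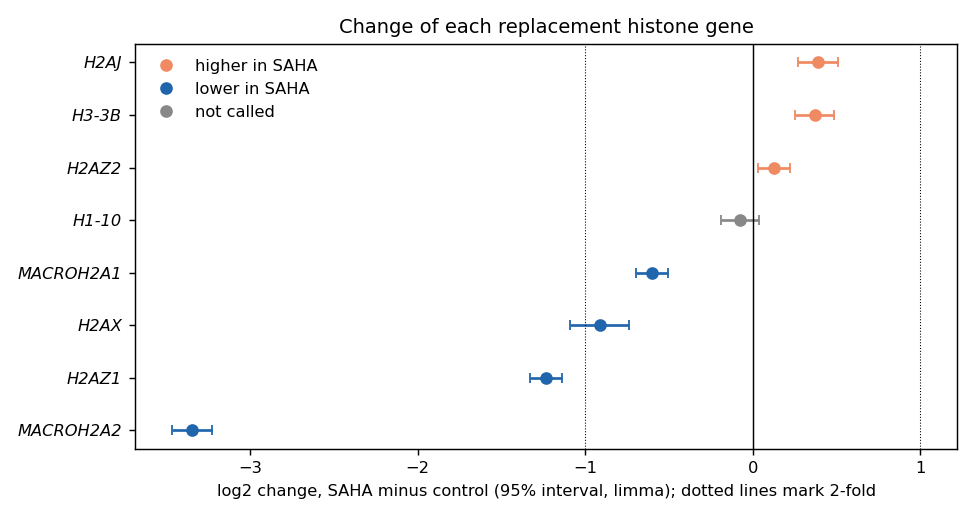
Log2 change of each gene, SAHA minus control, from limma with its 95% interval, ordered from the highest to the lowest. MACROH2A2 at -3.35 and H2AZ1 at -1.23 lie beyond the dotted lines that mark a 2-fold change, and the interval of H1-10 crosses 0. Over all genes, 11.3% passed the test with a change of at least 2-fold.

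The H2A.Z genes parted. H2AZ1 and H2AZ2 encode proteins that differ in few residues and that the same exchange complexes place in chromatin. H2AZ1 gave log2 signals of 10.93, 10.88 and 10.92 on the SAHA arrays and 12.14, 12.11 and 12.17 on the control arrays. The groups were far apart, and arrays within a group nearly coincided. The fall was -1.23 on the log2 scale (SE 0.04, 95% interval -1.33 to -1.14, limma adjusted p = 1.13e-07), which left 42.5% of the control signal. H2AZ2 gave 10.84, 10.83 and 10.82 in SAHA and 10.70, 10.66 and 10.73 in control. Its SAHA values all lay above control, by a small step. The rise was 0.13 (SE 0.04, interval 0.03 to 0.22, limma adjusted p = 0.0256), a 1.09-fold difference. This call was lost in 5 of 6 fits that left out 1 array, namely SAHA replicate 1, 2 or 3 or control replicate 1 or 2, with limma adjusted p of 0.0526 to 0.0809 and changes that stayed positive.

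The 2 genes were then set against each other within each array, which cancels what the array does to both. H2AZ1 minus H2AZ2 was 0.09, 0.05 and 0.10 log2 units on the SAHA arrays and 1.44, 1.45 and 1.44 on the control arrays. Because probes of different genes are not comparable in level, only the shift between groups is read, and it was -1.36 (SE 0.02), a 2.57-fold change of H2AZ1 relative to H2AZ2. An exact two-sided permutation test over the 6 arrays gave p = 0.1, which is the smallest value that 3 arrays against 3 allow (0.1 after Benjamini-Hochberg adjustment over 3 gene pairs).

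The promoter windows of both genes are given because the coding products are so alike while the transcripts moved apart. They come from RefSeq on GRCh38.p14, run 5′ to 3′ on the gene's strand, and span 250 bases before to 50 bases after the annotated start. Capitals mark matches, on either strand, to CCAAT (the NF-Y motif), to TTTGAA or TTTAAA (the cell cycle homology region, CHR), to TTTNNCGC (an E2F motif), to GGGCGG (the SP1 motif, or GC box) and to TATAAA (the TATA box). The H2AZ1 window lies at chr4:99950226-99950525, minus strand, and the H2AZ2 window at chr7:44848038-44848337, minus strand.
H2AZ1 promoter: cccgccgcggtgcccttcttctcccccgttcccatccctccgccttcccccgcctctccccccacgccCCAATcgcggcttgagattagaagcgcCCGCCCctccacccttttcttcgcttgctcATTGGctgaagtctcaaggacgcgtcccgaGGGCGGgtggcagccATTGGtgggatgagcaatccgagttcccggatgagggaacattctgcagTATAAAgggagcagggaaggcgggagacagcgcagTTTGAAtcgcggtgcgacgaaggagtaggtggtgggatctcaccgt
H2AZ2 promoter: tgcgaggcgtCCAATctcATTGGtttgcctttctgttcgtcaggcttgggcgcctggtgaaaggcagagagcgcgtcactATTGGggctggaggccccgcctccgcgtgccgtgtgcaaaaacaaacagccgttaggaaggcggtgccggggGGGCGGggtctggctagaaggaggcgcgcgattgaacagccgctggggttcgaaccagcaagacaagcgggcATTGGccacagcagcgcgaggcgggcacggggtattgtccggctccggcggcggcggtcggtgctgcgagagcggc
The H2AZ1 window held 3 CCAAT matches, 2 GC boxes, a TATA match 31 bases before the start and a CHR match at base 5 after it. The H2AZ2 window held 4 CCAAT matches, 1 GC box and neither a TATA nor a CHR match.

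H2AX, whose tail is phosphorylated by ATM, ATR and DNA-PK at sites of DNA damage, also fell. Its log2 signals were 9.80, 9.81 and 10.06 in SAHA and 10.77, 10.78 and 10.87 in control. SAHA replicate 3 was the highest of the SAHA arrays but still well under every control array. The change was -0.91 (SE 0.08, interval -1.09 to -0.74, limma adjusted p = 1.49e-05), leaving 53.1% of the control signal, and it was -0.999 without SAHA replicate 3. Unlike most replacement genes, H2AX is known to give both a stem-loop and a polyadenylated transcript, which a summary of 1 probe set does not separate. Its window at chr11:119095416-119095715, minus strand is shown for comparison with that of H2AZ1, which fell with it.
H2AX promoter: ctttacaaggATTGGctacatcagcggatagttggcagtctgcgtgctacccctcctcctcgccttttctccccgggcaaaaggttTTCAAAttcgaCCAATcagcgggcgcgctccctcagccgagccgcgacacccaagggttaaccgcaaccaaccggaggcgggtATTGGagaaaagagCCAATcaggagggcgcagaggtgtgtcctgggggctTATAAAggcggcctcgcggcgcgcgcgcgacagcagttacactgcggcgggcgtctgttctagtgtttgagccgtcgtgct
It held 4 CCAAT matches, a CHR match on the other strand and, as in H2AZ1, a TATA match 31 bases before the start.

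H2AJ, a variant that differs from ordinary H2A mainly at its tail and is known to accumulate in senescent cells, rose. It gave 8.03, 8.11 and 7.98 in SAHA and 7.69, 7.61 and 7.64 in control, without overlap. The rise was 0.39 (SE 0.05, interval 0.27 to 0.51, limma adjusted p = 0.000227), or 1.31-fold. H2AJ was the 1 measured member with a mean level under the median of all genes, where array signals can compress differences.

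Both macroH2A genes fell, by very different amounts. MACROH2A2 gave 7.28, 7.20 and 7.32 in SAHA and 10.56, 10.61 and 10.67 in control, or linear signals of 155, 147 and 160 against 1508, 1563 and 1625. The groups were set wide apart, with little spread inside either. The fall of -3.35 (SE 0.05, interval -3.47 to -3.23, limma adjusted p = 5.52e-09) was 10.2-fold, and 13 of 18417 genes changed by more in that direction. Without a background call it is not known whether the SAHA signals lay at background, in which case the fold would be understated. MACROH2A1, whose transcript is spliced into alternative forms that differ in binding ADP-ribose, gave 11.21, 11.21 and 11.23 in SAHA and 11.77, 11.83 and 11.84 in control. The groups did not overlap. Its fall was -0.60 (SE 0.04, interval -0.70 to -0.50, limma adjusted p = 5.15e-06), leaving 65.9% of the control signal. The array value sums over the splice forms and does not tell them apart.

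Within arrays, MACROH2A1 minus MACROH2A2 was 3.93, 4.01 and 3.91 log2 units in SAHA and 1.22, 1.22 and 1.18 in control. The shift of 2.75 (SE 0.03) means that MACROH2A2 fell 6.71-fold further than MACROH2A1 (exact permutation p = 0.1, the smallest possible, and 0.1 after adjustment over 3 pairs). Over the 6 arrays, the centred profiles nearest to that of MACROH2A2 were those of H2AC21, a replication-dependent H2A gene (root mean square distance 0.04 log2 units, change -3.33), GCNT4, a glycosyltransferase gene (0.05, change -3.37), and NEIL3, a DNA glycosylase gene (0.05, change -3.35). The nearest to H2AZ1, the member with the next largest change, were TLE5, a transcriptional corepressor gene (0.02, change -1.24), HECW1, a ubiquitin ligase gene (0.02, change -1.24), and CMBL, a hydrolase gene (0.02, change -1.22). With 6 arrays in 2 groups, a short distance mainly requires a like change.

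The promoter of MACROH2A2, the gene with the largest change here, is shown because none of the searched motifs was found in it. It lies at chr10:70052596-70052895, plus strand.
MACROH2A2 promoter: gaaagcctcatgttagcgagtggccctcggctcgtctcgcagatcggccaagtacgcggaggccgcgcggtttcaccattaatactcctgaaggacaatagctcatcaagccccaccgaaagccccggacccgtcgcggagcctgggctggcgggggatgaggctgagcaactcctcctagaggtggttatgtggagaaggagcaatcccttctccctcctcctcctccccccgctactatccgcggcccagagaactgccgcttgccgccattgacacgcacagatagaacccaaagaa
All 5 motifs were likewise missing from 19.2% of all 35116 windows. This says only that these letters are not in this window. The first of the 2 windows listed for MACROH2A1, at chr5:135399182-135399481, minus strand, held 2 GC boxes and none of the other motifs, and the second, at chr5:135399838-135400137, held 2 CCAAT matches, a CHR match and an E2F match.

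**Figure D3:**
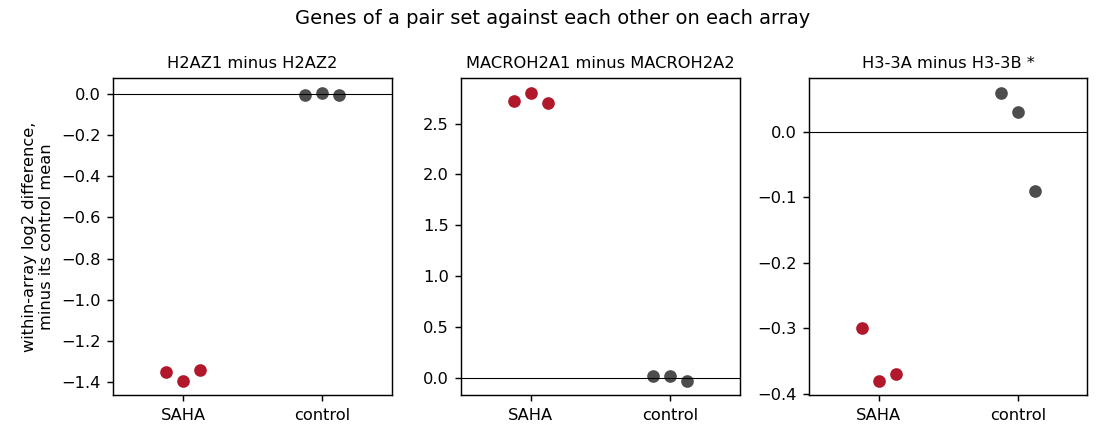
Within-array log2 difference between the genes of each pair, shifted so that the control mean is 0, with SAHA left and control right and a dot per array. The vertical scales differ between panels, and the asterisk marks H3-3A, read from a probe set that also names H3P6. SAHA and control dots are apart in all 3 panels.

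H3-3A and H3-3B encode the same H3.3 protein. H3-3B gave 11.66, 11.71 and 11.69 in SAHA and 11.30, 11.25 and 11.40 in control. All SAHA values lay above control. It rose by 0.37 (SE 0.05, interval 0.25 to 0.49, limma adjusted p = 0.000284), or 1.29-fold. H3-3A was seen through 4 probe sets, each of which also named H3P6, so the pseudogene's part in them cannot be told apart. The one with the highest mean gave 12.63, 12.60 and 12.59 in SAHA and 12.63, 12.56 and 12.57 in control. The groups overlapped on this probe set and on the other three. Its change was 0.02 (interval -0.08 to 0.12, limma adjusted p = 0.726 when probe sets naming several genes were admitted), and the 4 probe sets ranged from -0.0015 to 0.03. H3-3A minus H3-3B within arrays was 0.97, 0.89 and 0.90 in SAHA and 1.33, 1.30 and 1.18 in control, a shift of -0.35 (SE 0.05, exact permutation p = 0.1, the smallest possible, and 0.1 after adjustment over 3 pairs).

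H3-5, an intronless relative of H3-3B with a closely similar sequence, averaged 11.77 ± 0.07 in SAHA and 11.38 ± 0.05 in control (SD, n = 3 each). Its change of 0.39 (limma adjusted p = 0.000322) was near that of H3-3B, and signal shared between the probes of both genes was not tested. The H3-3B promoter window, at chr17:75779730-75780029, minus strand, is given as that of a gene that rose while sharing motifs with those that fell.
H3-3B promoter: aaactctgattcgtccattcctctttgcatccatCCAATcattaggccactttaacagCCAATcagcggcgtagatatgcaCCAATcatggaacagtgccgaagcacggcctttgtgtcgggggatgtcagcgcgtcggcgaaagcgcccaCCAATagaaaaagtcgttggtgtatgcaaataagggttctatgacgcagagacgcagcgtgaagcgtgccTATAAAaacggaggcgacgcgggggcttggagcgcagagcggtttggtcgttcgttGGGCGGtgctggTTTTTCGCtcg
It held 4 CCAAT matches, a TATA match 29 bases before the start, a GC box and an E2F match.

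H1-10, a linker histone that binds DNA between nucleosomes and whose gene is not tied to replication, gave 9.48, 9.50 and 9.38 in SAHA and 9.50, 9.52 and 9.57 in control. The groups overlapped. Its change was -0.08 (SE 0.05, interval -0.19 to 0.04, limma adjusted p = 0.226). A miss of the threshold does not show that the gene was unaffected.

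In order of change, MACROH2A2 came lowest, followed by H2AZ1, H2AX, MACROH2A1, H1-10, H2AZ2, H3-3B and H2AJ. Each step in this order was read as the shift of the within-array difference between neighbours. The order was taken from the same arrays, so the direction of each step was fixed beforehand. The step values therefore describe the gaps and are no separate support for the order. The step was widest between MACROH2A2 and H2AZ1 (difference -2.11, SE 0.04). H2AZ1 differed from H2AX by -0.32 (SE 0.08), and H2AX from MACROH2A1 by -0.31 (SE 0.08). MACROH2A1 differed from H1-10 by -0.53, H1-10 from H2AZ2 by -0.20 and H2AZ2 from H3-3B by -0.24. In these 6 steps the SAHA and control arrays did not overlap, with an exact permutation p of 0.1 each, the smallest possible (0.117 after Benjamini-Hochberg adjustment over 7 steps). For the last step, H3-3B to H2AJ, the groups overlapped (difference -0.02, SE 0.05, exact permutation p = 0.6, adjusted 0.6).

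All 9 genes had at least 1 window in the RefSeq table, with 13 windows in all. H3-3A had 4 windows and MACROH2A1 had 2, and a gene was counted if any of its windows held a match. The shares over all windows are per window, so they are not like measures to these gene counts. A window with 3 or more CCAAT matches was found for 5 genes, of which 2 fell (H2AZ1 and H2AX) and 3 rose (H2AZ2, H2AJ and H3-3B). Among all 35116 windows, 34.6% held CCAAT and 3.26% held it 3 or more times. A TATA match was found for 4 genes, H2AZ1, H2AX, H3-3B and H1-10, against 11.5% of all windows. CHR letters were found for 3 genes, H2AZ1, H2AX and MACROH2A1, all of which fell, and for none of the 3 genes that rose, while MACROH2A2 fell without them. They occur in 24.0% of all windows, and with so few genes this is a description with no test. The E2F letters were found for MACROH2A1, which fell, and H3-3B, which rose (6.89% of all windows). The GC box was found for H2AZ1 and MACROH2A1, which fell, for H2AZ2 and H3-3B, which rose, and for H3-3A (45.0% of all windows). Matches of different motifs overlapped in none of these windows, while 2 GC boxes overlapped in 1 window of H3-3A.

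**Figure D4:**
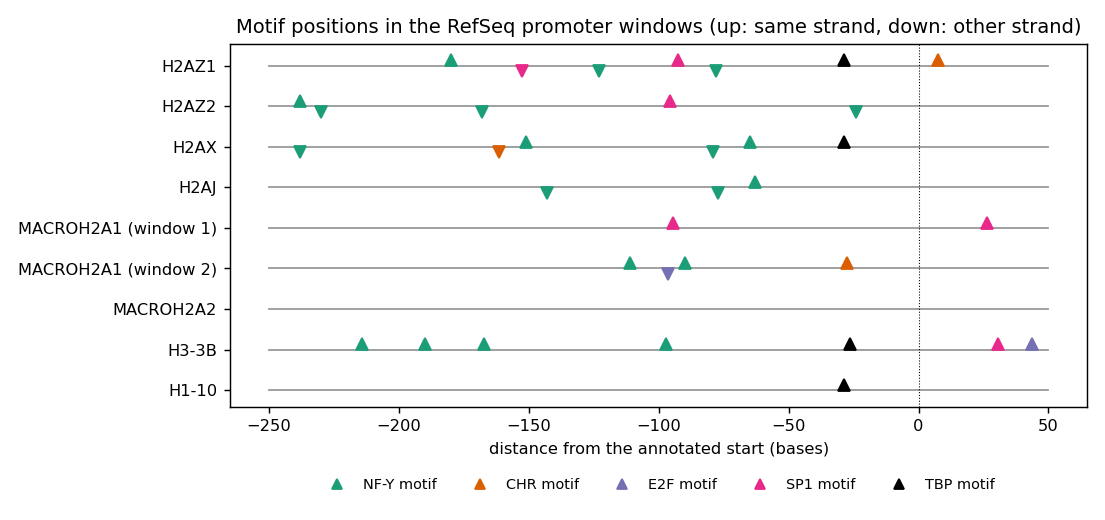
Positions of the motif matches in the promoter windows of the measured genes, in bases from the annotated start (dotted line), pointing up on the gene's strand and down on the other. NF-Y motifs are dense in H2AZ1, H2AZ2, H2AX, H2AJ and H3-3B, TBP (TATA) motifs lie near -30 in H2AZ1, H2AX, H3-3B and H1-10, and the MACROH2A2 window holds no match.

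The genes that place these variants in chromatin were described next. Among all 18417 genes 28.9% fell and 31.1% rose, with a median change of -0.0027. A list with counts near these shares does not stand out from the other genes. Of 23 measured genes of the H2A.Z exchange complexes (SRCAP, p400-TIP60 and INO80 subunits and the H2A.Z chaperone), 12 fell and 5 rose while 6 did not pass. The median change was -0.15. Over all 18417 genes, 998 passed as lower with a fall of at least 2-fold. The 3 genes of this list that did so were EPC2 (-1.38), ANP32E (-1.29) and BRD8 (-1.13). EPC2 is a scaffold subunit of the TIP60 complex, ANP32E the chaperone that takes H2A.Z out of nucleosomes, and BRD8 a bromodomain subunit. ANP32E averaged 9.12 ± 0.04 in SAHA and 10.41 ± 0.10 in control (SD, n = 3 each, limma adjusted p = 4.54e-07). ACTR6, an actin-related subunit of the SRCAP complex, rose by 0.68.

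Chaperones of H3 and H4 were listed by whether they act at the replication fork or on H3.3. These lists were chosen with earlier results of these data known, and ASF1A, which rose, was placed in the H3.3 list only. All 7 genes listed as chaperones of H3 and H4 during replication fell, with a median of -1.47. ASF1B averaged 9.88 ± 0.09 in SAHA and 11.94 ± 0.03 in control (SD, n = 3 each), a change of -2.06 (limma adjusted p = 4.1e-08). The assembly factor subunits CHAF1A and CHAF1B changed by -1.95 and -1.47, MCM2, a helicase subunit that also holds histones, by -1.84, NASP by -1.29, TONSL by -0.997 and RBBP4 by -0.76. Of 7 H3.3 chaperone genes 3 rose and 1 fell, the other 3 not passing, and the median was 0.06. For both lists the shares over all genes were 28.9% lower and 31.1% higher, with a median of -0.0027. ASF1A rose by 0.41, CABIN1 by 0.42 and UBN1, which works with HIRA, by 0.28. ATRX, the partner of DAXX, fell by 0.48 (limma adjusted p = 0.0132). HIRA itself was at -0.05, DAXX at -0.07 and UBN2 at 0.06.

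Of 14 genes that phosphorylate, dephosphorylate or read H2AX, 6 fell, 5 rose and 3 missed the threshold. The median was -0.01, which turned to 0.02 after a further quantile normalization and to 0.01 after cyclic loess. Over all genes 28.9% fell and 31.1% rose, with a median of -0.0027 in the main fit. ATM, the main kinase of H2AX at breaks, averaged 9.08 ± 0.03 in SAHA and 9.85 ± 0.03 in control (SD, n = 3 each), a change of -0.77. BAZ1B, a kinase of a tyrosine in the H2AX tail, changed by -0.92 and ATR by -0.44, whereas EYA3, a phosphatase of that tyrosine, rose by 0.72. Of 7 macroH2A partners and splicing regulators 4 fell, 1 rose and 2 missed the threshold (median -0.29). HELLS, a remodeller known from mouse cells to promote macroH2A deposition, averaged 7.69 ± 0.05 in SAHA and 9.89 ± 0.05 in control (SD, n = 3 each, change -2.20). QKI, which favours one splice form of macroH2A1, fell by 0.66, DDX17 by 0.42 and DDX5 by 0.29, while MBNL1 rose by 0.32. PARP1, an enzyme bound by macroH2A1, was at 0.11 and RBFOX2 at -0.01, neither of which passed.

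Other variant and replication-dependent histone genes were set beside the members. The shares over all genes were again 28.9% lower and 31.1% higher, with a median of -0.0027. Of 9 measured other variants 2 rose, 3 fell and 4 missed the threshold (median -0.02). H1-6, a testis linker histone, rose by 2.11, and its mean was 7.97 ± 0.15 in SAHA and 5.86 ± 0.06 in control (SD, n = 3 each). H2AC1, also a member of the replication-dependent H2A list, changed by -0.31 and H3-4 by -0.17. CENPA and H2AB1 had no probe set naming them alone. Among measured replication-dependent genes, 4 of 5 H1 genes fell and 1 did not pass (median -0.49). Of 14 H2A genes 11 fell, 2 rose and 1 did not pass (median -1.03). Of 8 H3 genes 7 fell and 1 rose (median -0.94). A further 2 listed H2A genes and 5 listed H3 genes had no probe set naming them alone. H2AC21 changed by -3.33, H1-5 by -3.29 and H3C2 by -2.18, whereas H3C10 rose by 2.12. H2AC4 changed by -2.34, H2AC20 by -1.61, H2AC6 by -0.98, H3C7 by -2.36 and H3C12 by -2.45. The 2 H2A genes that rose were H2AC11, by 1.63, and H2AC17, by 0.77. The remaining H3 genes fell by less, with H3C1 at -1.46, H3C3 at -0.42, H3C8 at -0.33 and H3C11 at -0.18. Among H1 genes, H1-2 changed by -0.59, H1-4 by -0.49 and H1-3 by -0.14, and H1-1 was at -0.0018 (limma adjusted p = 0.978). Many replication-dependent H2A and H3 genes are near-identical copies whose probes may share signal, and shared signal was not tested in any of these lists. The medians of the replication-dependent H1, H2A and H3 lists stand below the -0.34 of the 8 replacement genes, and that of the other variants stands above it. Differences between the lists were not tested.

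**Figure D5:**
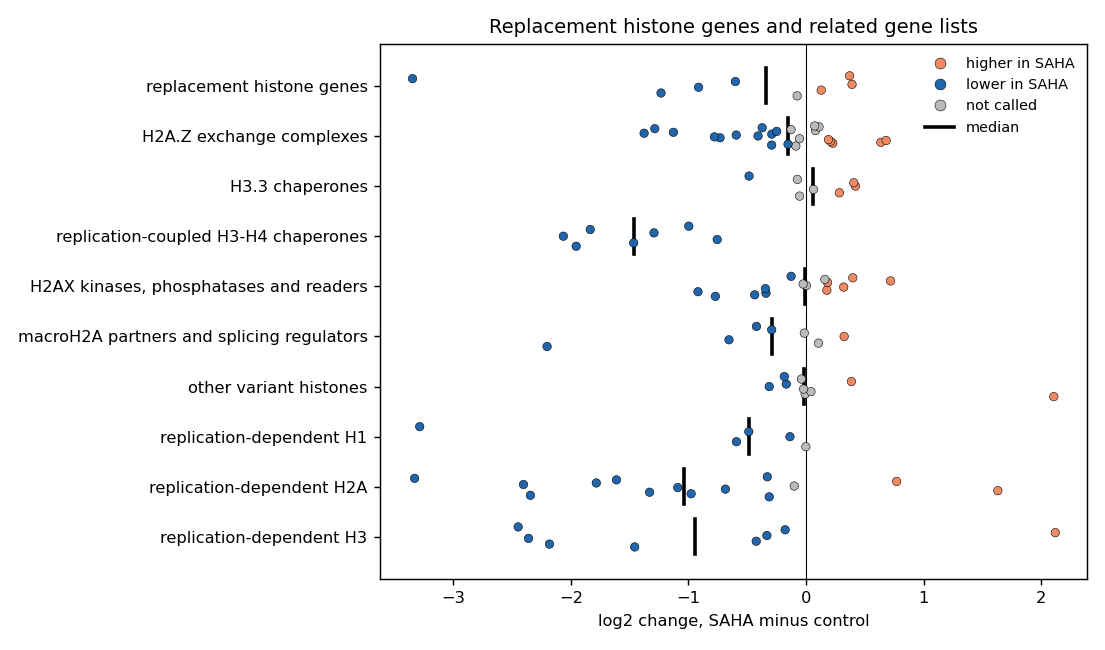
Log2 change, SAHA minus control, of each measured gene in the replacement histone set and in 9 related lists, coloured by call, with the median of each as a bar. All genes of the replication-coupled chaperone list are lower in SAHA, while the replacement histone genes spread from -3.35 to 0.39.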

How the data were processed

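Series matrix values of 6 Affymetrix whole-transcript arrays (A204, 3 SAHA and 3 control) were analysed. The deposited intensity values are RMA signals, per the submitters' processing notes, and the software behind them is not given. They were on a linear scale (6.56 to 20338), so log2 was taken without a pseudocount. Because RMA equalises the arrays' distributions, a shift of all transcripts at once would be hidden, and no detection calls were used. Of 33252 probe sets 19460 named 1 gene in the platform annotation, 1754 several and 12038 none. Symbols were updated through Entrez identifiers (19429 matched) with RefSeq on GRCh38.p14. For each gene the probe set of highest mean across the 6 arrays was read, with no filter on low values, so all 8 members with such a probe set were tested.

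SAHA was compared with control by limma 3.58.1 (R 4.3.3, lmFit and eBayes, no covariates), Benjamini-Hochberg adjusted over 18417 genes, two-sided. Every adjusted p is limma's unless called exact. On simulated data with 18417 genes, 77.6%, 100% and 100% of genes changed by 0.5, 1 and 2 log2 units were recovered, with 6 false calls. The simulation changed only 67, 67 and 66 genes at these sizes and used independent normal noise. In the real data 60.0% of genes were called, so these recovery and false call figures need not hold there. Gene pairs were compared by exact permutation over arrays. The genes named were the 9 members, all or the 4 smallest adjusted p of each list, the 3 nearest profiles of the 2 members with the largest change and SMARCB1. CENPA and H2AB1 are named only as list genes without a value. H2AC11 and H2AC17 are named as the replication-dependent H2A genes that rose. The members and lists were chosen with earlier results of these data known.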

Additional observations from a re-analysis of the deposited data

How the results depend on the processing

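Each of the 8 measured genes was refitted under up to 19 alternatives: a further quantile normalization, cyclic loess, median centring, 2 filters on low levels, 16 added before log2, averaging over probe sets, probe sets naming several genes admitted, all probe sets tested, trended and robust moderation, an unmoderated test, array weights, the replicate block and each array left out in turn. The direction held in all of them for every gene, and 7 genes kept their side of the threshold, with MACROH2A2 between -3.38 and -3.22, H2AZ1 between -1.25 and -1.19, and H1-10 between -0.10 and -0.01. The level filters, probe set choices, moderation options, unmoderated test and replicate block leave the change of each fitted gene as it was. In those alternatives only the adjusted p could differ, so they do not test the direction. H2AJ has no value under the stricter filter, which removes it. The call of H2AZ2 was lost with the replicate block (change 0.13, adjusted p = 0.0718) and when 1 array was left out (0.11 to 0.14 over the 6 fits), and it held only without control replicate 3 (adjusted p = 0.0244) among those. Its adjusted p ran from 0.00579 to 0.0809. The replicate block lost no other call. Equal replicate numbers did not go with equal deviations (correlations -0.03, -0.17 and -0.004 over genes), so the numbers are not taken to pair arrays. The shift of H2AZ1 against H2AZ2 stayed between -1.37 and -1.35 and that of MACROH2A1 against MACROH2A2 between 2.62 and 2.77. Over all genes, those called higher numbered 3660 with the stricter filter at the median level, where fewer genes are tested. H3-3A and its pair with H3-3B were fitted only with probe sets naming several genes. Signal over background was not known, which limits what can be said of H2AJ and of MACROH2A2 in SAHA.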
